A study of Mus musculus with 54 samples.

Results

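On arrays of mouse aorta RNA, 51 of the 21179 array features kept had values in C57Bl/6 (C57) mice that did not overlap those in C3H/HeJ (C3H) mice on any of 54 arrays. The members were selected on these log ratios themselves: for each, the lowest of 27 values in one strain lay above the highest of 27 values in the other. They make up 0.241% of the features kept, with 30 higher in C57 (0.142%) and 21 higher in C3H (0.0992%). Because this rule used the values of both strains, the strain differences are a description and carry no test.

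Each array set total RNA of mouse aorta against total RNA of mouse embryos of embryonic day 17.5, the second channel on all arrays. Both strains were sampled on normal chow at weeks 0, 4, 8, 24 and 40, and on a high-fat diet at weeks 4, 8, 24 and 40. Every one of the resulting 18 groups holds 3 arrays with the numbers 1, 2 and 3. Weeks are those of the sample titles, although another label has week 10 in place of week 8. The labels name no transgene, allele or further agent, and no age. They do not say if a group's arrays come from different animals, so a p-value here reflects variation between arrays that may be technical.

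C57Bl/6 and C3H/HeJ are inbred strains, so mice of one strain are nearly identical genetically and the strains differ at many fixed sequence variants. C57Bl/6 is known as susceptible, and C3H/HeJ as resistant, to fatty lesions of the aortic wall on a fat-rich diet. The wall consists mainly of smooth muscle, with an endothelial lining and an outer layer of fibroblasts and fat. In RNA of a whole vessel, fewer cells of a type and less RNA per cell cannot be told apart, and RNA that matches a probe less well in one strain cannot be told apart from less RNA.

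Values are log ratios as deposited, centred so that 0 is the median ratio of an array. Base 10 is likely only, and the sources used here state neither the base nor the direction of the ratio. Signs are those of the deposited table and would all turn together if the ratio ran embryo over aorta. A level above or below 0 therefore means a ratio on one or the other side of the array's median, and does not say which of aorta and embryo held more RNA. Features are given by number because the platform's names were not borne out by the values, so neither gene functions nor markers of smooth muscle could be read from them.

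Across all features, pairs of arrays correlated at r from 0.487 to 0.966, with a median of 0.839. The SD of the log ratio over features, which measures how far an array spreads its values, had a median of 0.267 and ranged from 0.160 to 0.305. On 5 arrays it was under 0.2, 4 of C57 and 1 of C3H. How many of the members' extremes fell on these 5 arrays is given further on.

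The size of the strain difference, averaged over the 9 combinations of week and diet, ran from 0.102 in feature 10010 to 1.22 in feature 4881, with a median of 0.363. If the base is 10, these are differences of 1.27-fold, 16.7-fold and 2.31-fold. The size was above 0.2 in 47 of the 51 features, above 0.3 in 35, above 0.5 in 17 and above 1 in 4. Among the 30 features higher in C57 the median size was 0.342, and among the 21 higher in C3H it was 0.430. Of the 4 features above 1, feature 4881 was higher in C57 and features 17783, 9352 and 10334 were higher in C3H.

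**Figure D1:**
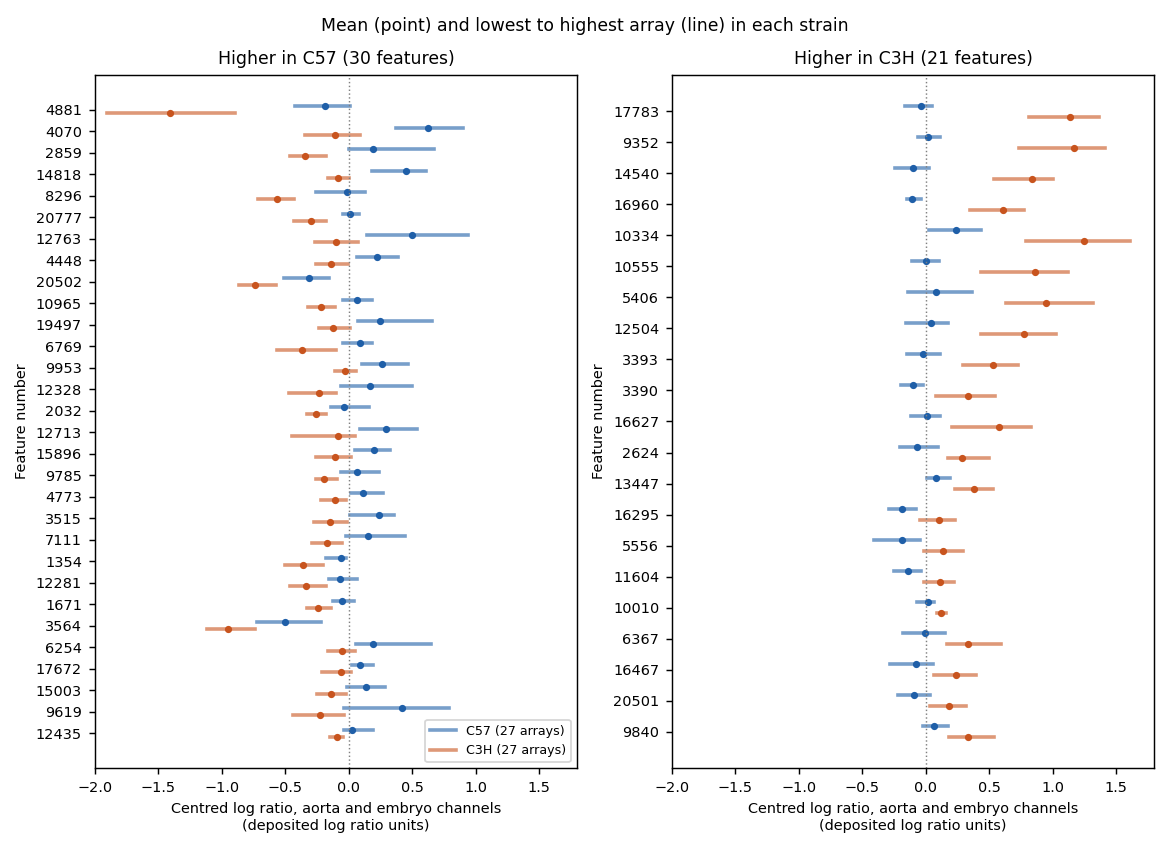
Centred log ratio (horizontal axis, deposited log ratio units) of the 51 features, with a point at the mean of 27 arrays of a strain and a line from the lowest to the highest array, for features higher in C57 (left) and in C3H (right), ordered by the gap between strains. In the right panel most C57 points lie close to 0 while C3H points reach 1.25, and in the left panel the C3H points all lie below 0.

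The gap between the strains, from the lowest value of the upper strain to the highest of the lower strain, had a median of 0.0459. It exceeded 0.1 in 16 features, 6 higher in C57 and 10 higher in C3H, and was under 0.05 in 26. Just inside the rule lay feature 12435 with a gap of 0.00287, feature 9840 with 0.00312 and feature 20501 with 0.00343. Just outside it lay feature 7841 with an overlap that gives a gap of -0.00157, feature 845 with -0.00286 and feature 3676 with -0.00391. The features on both sides of the limit had like sizes, with 0.119, 0.261 and 0.277 inside and 0.371, 0.212 and 0.155 outside. Membership at the narrow end is therefore set by single arrays.

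The widest gap among features higher in C57 belonged to feature 4881. Its values in C57 ran from -0.43 on the lowest array through a median of -0.16 to 0.01 on the highest, and in C3H from -1.90 through -1.39 to -0.89. All C3H arrays lay far below 0, while the C57 arrays lay nearer to it, the highest just above. The difference was 1.22 with an SE of 0.0650 and ranged over the 9 conditions from 0.97 to 1.41. Once all arrays were scaled to the same median absolute deviation, another measure of spread over features, its gap was -0.0755, an overlap. Features 3564 and 20502 then overlapped by more, with gaps of -0.304 and -0.288, and 7 of the 51 features overlapped in all.

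Feature 4070 had the next widest gap in this direction and the opposite level. C57 arrays ran from 0.38 through a median of 0.63 to 0.90, and C3H arrays from -0.34 through -0.06 to 0.09. Here C57 was the strain far from 0 and C3H lay around it. The difference was 0.73 with an SE of 0.0291, and over conditions 0.59 to 0.89.

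Feature 14818 had the same arrangement, with C57 arrays from 0.19 through 0.47 to 0.61 and C3H arrays from -0.16 through -0.07 to 0.00419. Its difference was 0.53 with an SE of 0.0253. Feature 2859 was one of 6 features with the strains wholly on opposite sides of 0, with C57 from 0.00598 through 0.19 to 0.67, a value of 1 array at week 40 on high-fat diet, and C3H from -0.46 through -0.36 to -0.18. Its difference was 0.53 with an SE of 0.0279. Feature 8296 had C57 around 0, from -0.26 to 0.13, and C3H below it, from -0.71 through -0.57 to -0.43. Its difference was 0.55 with an SE of 0.0239.

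Among features higher in C3H, feature 17783 had the widest gap of all 51, at 0.77. Its C57 arrays ran from -0.16 through a median of -0.04 to 0.05, and its C3H arrays from 0.81 through 1.15 to 1.36. The lowest C3H array was thus farther from 0 than any C57 array. The C57 minus C3H difference was -1.17 with an SE of 0.0233, and its size was smallest, at 1.02, at week 8 and largest at week 40 of the high-fat diet.

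Feature 9352 had nearly the same profile, with C57 arrays from -0.06 to 0.11 and C3H arrays from 0.73 through 1.21 to 1.41. Its difference was -1.15 with an SE of 0.0252. Feature 14540 ran from -0.24 through -0.11 to 0.02 in C57 and from 0.53 through 0.83 to 1.0 in C3H, a difference of -0.93 with an SE of 0.0184. In both, C57 arrays gathered near the median ratio and C3H arrays lay well above it.

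Feature 16960 had the strains wholly on opposite sides of 0, with C57 from -0.15 through -0.11 to -0.04 and C3H from 0.35 through 0.63 to 0.77. Its difference was -0.72 with an SE of 0.0169. Feature 10334 was the one among these 5 with both strains above 0 on all arrays, as was feature 13447 with a narrower gap, with C57 from 0.03 through 0.24 to 0.43 and C3H from 0.79 through 1.25 to 1.61. Its difference was -1.01 with an SE of 0.0457.

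**Figure D2:**
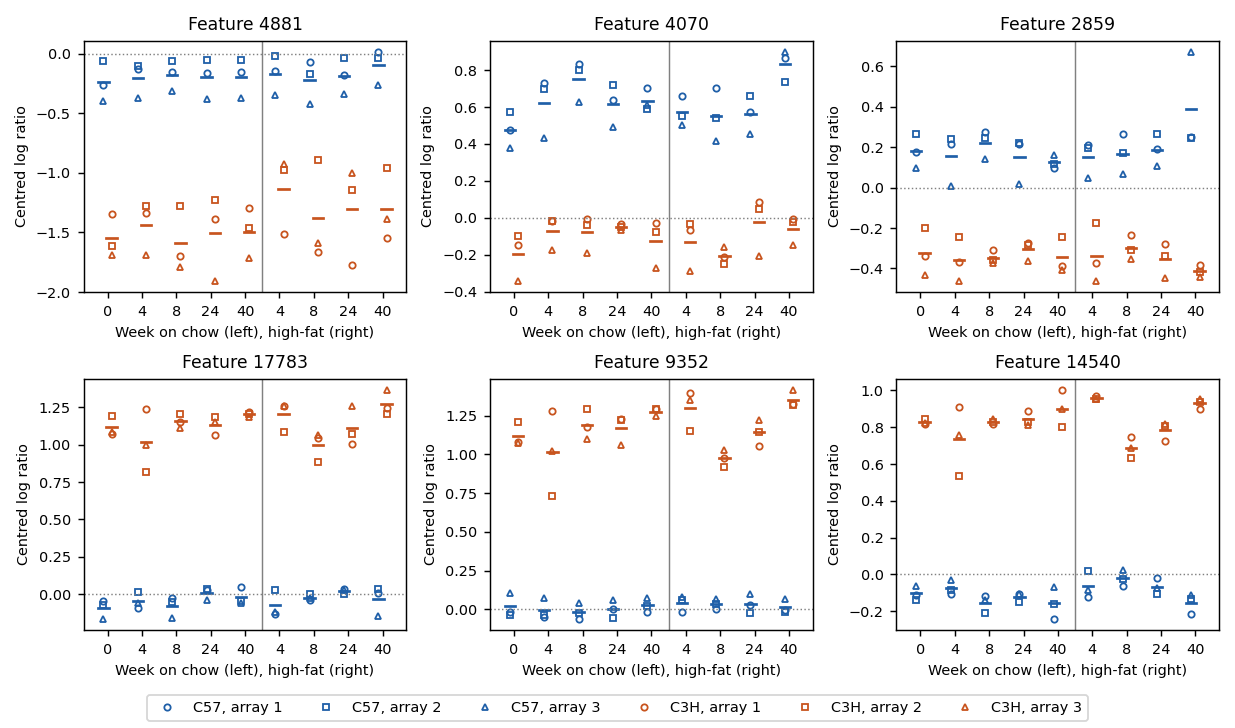
Centred log ratio (vertical axis, deposited log ratio units) of the 3 features with the widest gap in each direction on all 54 arrays by week, with chow left and high-fat right of the vertical line. Symbols are arrays 1, 2 and 3 of a group, and bars are group means. The strains stay apart at all weeks shown and on both diets; in the lower row the C57 arrays lie near 0 and the C3H arrays at 0.53 or more.

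Relative to 0, the strains were not placed symmetrically. The mean of the 27 C3H arrays lay below 0 in all 30 features higher in C57, from -1.41 to -0.03, and above 0 in all 21 features higher in C3H, from 0.0998 to 1.25. The C57 mean had no such fixed side, with 22 above and 8 below 0 among the 30, and 9 above and 12 below among the 21. In the 21 features higher in C3H, the C57 mean was within 0.2 of 0 in 20, against 5 for the C3H mean. In the 30 features higher in C57, these counts were 18 for C57 and 16 for C3H.

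The strain means lay on opposite sides of 0 in 34 of the 51 features. In the other 17 both lay on one side with C3H farther out, and in 0 features did both lie on one side with C57 farther out. Over all features kept, these shares were 11.2%, 53.3% and 35.5%. Features with a large strain difference that missed the rule are the closer comparison. Among the 75 that missed it with a size over 0.3, the shares were 40%, 38.7% and 21.3%, and C57 lay farther out in 16. Among 289 with a size over 0.2 they were 50.9%, 34.6% and 14.5%, with C57 farther out in 42. No test was made, because the level of each strain enters the rule.

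Within a strain, the features higher in C3H spread more in C3H, with an SD over 27 arrays above that of C57 in 19 of 21. Among the features higher in C57 this was so in 9 of 30. Over all features kept, the C3H SD was the larger in 58.5%. The residual SD within groups had a median of 0.0822 over the 51 features and of 0.0880 over all features kept. Among the 75 features that missed the rule with a size over 0.3 it was 0.138, as the rule favours features of small spread.

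The same strain difference was present at all 9 conditions in each feature, which the rule itself guarantees in direction but not in size. The median size over the 51 features was 0.346 at baseline. The chow groups of weeks 4, 8, 24 and 40 then had medians of 0.328, 0.388, 0.334 and 0.349, and the high-fat groups of 0.376, 0.315, 0.358 and 0.449. Within a feature, the largest size over conditions exceeded the smallest by 1.25-fold in feature 16467, by 3.59-fold in feature 6254, and by 1.66-fold at the median.

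The largest size fell on week 40 of the high-fat diet in 30 of the 51 features, and the smallest on week 8 of that diet in 18. The arrays themselves spread most at week 40 on high-fat diet, with a mean SD of 0.279, against 0.244 to 0.265 at the other conditions. In C3H it was 0.298 there, and in C57 0.260. With all arrays scaled to the same median absolute deviation, not to the same SD, the largest size fell on that condition in 4 features. The median size there was then 0.362, within the range of 0.315 to 0.379 of the others. The count of 30 features was therefore not kept under this scaling. The smallest size still fell on week 8 of the high-fat diet in 14 features, against 18 before scaling.

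**Figure D3:**
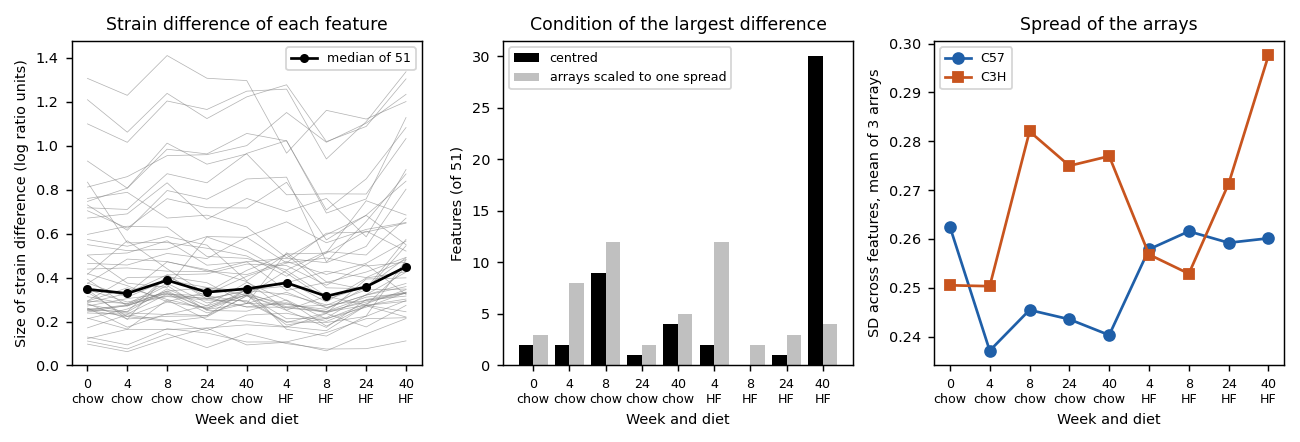
Size of the strain difference by week and diet for each of 51 features with their median (left), number of features with their largest difference at each condition before and after scaling arrays to one spread (middle), and SD over features of the arrays of each strain, mean of 3 arrays (right, axis not starting at 0). The bar of 30 features at week 40 on high-fat diet shrinks to 4 after scaling, and the C3H arrays there have the highest SD, 0.298. Scaling was to one median absolute deviation, not to one SD.

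Whether the size of the strain difference varied over the 9 conditions was tested with limma's moderated F test over all features. The rule bounds this test for the members, since it used the same differences and sets how small they can get at any condition, so their counts are a description. The test called 0 of the 51 features at an adjusted p under 0.05, against 14 of 21179 (0.0661%). At an unadjusted p under 0.05 there were 10 of 51, against 3.02% of all features. With arrays scaled to one spread this became 2 of 51 (2.94% of all), and with quantile normalization 3 of 51 (3.29%). The smallest adjusted p among the members was 0.238, for feature 14540. That feature's C3H values were 0.91, 0.54 and 0.76 at week 4 on chow, 0.74, 0.63 and 0.69 at week 8 on high-fat diet and 0.90, 0.94 and 0.95 at week 40 on high-fat diet. With the replicate number as a block its adjusted p was 0.0428, and 72 of all features were called (0.34%). It was also called without the first or without the second C3H chow array of week 4, and over 65 alternatives its adjusted p ran from 0.00853 to 1.

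Diet was compared within each strain over weeks 4, 8, 24 and 40. These tests, as those of time, use differences within a strain. The rule bounds the level of every array on the side of the other strain. It thereby favours features whose spread within a strain, diet and time included, is small beside the strain difference. The counts of members called for diet and time are therefore a description. The limma fit called 0 of the 51 features for the diet difference in C57, where 10 of all features were called (0.0472%), and 0 in C3H, where 112 were called (0.529%). At an unadjusted p under 0.05 there were 4 and 6 of 51, against 4.98% and 10.3% of all features. With the replicate number as a block 0 of the 51 were called in either strain, while the calls over all features rose to 124 (0.585%) and 864 (4.08%). With arrays that share strain, diet and number treated as a random block, which had an estimated correlation of 0.461, the calls over all features were 0 in both strains, with 103 and 391 at an unadjusted p under 0.05. Intervals given for diet and time come from the limma fit without either block.

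The high-fat minus chow difference of the members ran from -0.06 to 0.12 in C57 and from -0.08 to 0.22 in C3H. Its median size was 0.0211 in C57 and 0.0256 in C3H, against 0.0233 and 0.0264 over all features. Since no member was called, features are named here from their p-values after these were seen.

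In C57, feature 7111 had the smallest p, with group means on high-fat diet of 0.26, 0.19, 0.14 and 0.24 at weeks 4, 8, 24 and 40. On chow they were 0.11, 0.09, 0.05 and 0.11. High-fat means were above chow means at each of these weeks. The difference was 0.12 (95% interval 0.0427 to 0.192) with an adjusted p of 0.631 in limma.

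In C3H, feature 10334 had the smallest p, with means on high-fat diet of 1.38, 1.24, 1.40 and 1.48 and on chow of 1.10, 1.21, 1.14 and 1.22. The single chow arrays at week 24 were 1.08, 1.56 and 0.79, so the groups overlapped. The difference was 0.21 (95% interval 0.0680 to 0.345) with an adjusted p of 0.168 in limma. Without the second of these chow arrays the adjusted p was 0.0310, the lowest of 66 alternatives, of which the others called no difference for this feature.

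The strain by diet interaction asks whether the strain difference itself depended on diet. It is built from the strain differences that the rule used, so the members' counts are a description. The fit called 0 of 51 members and 4 of all features (0.0189%). At an unadjusted p under 0.05 there were 4 of 51, against 8.38% of all. Feature 7111 again had the smallest p, with an interaction of 0.16 (95% interval 0.0524 to 0.264) and an adjusted p of 0.405 in limma. With the replicate block 0 members and 134 of all features (0.633%) were called.

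**Figure D4:**
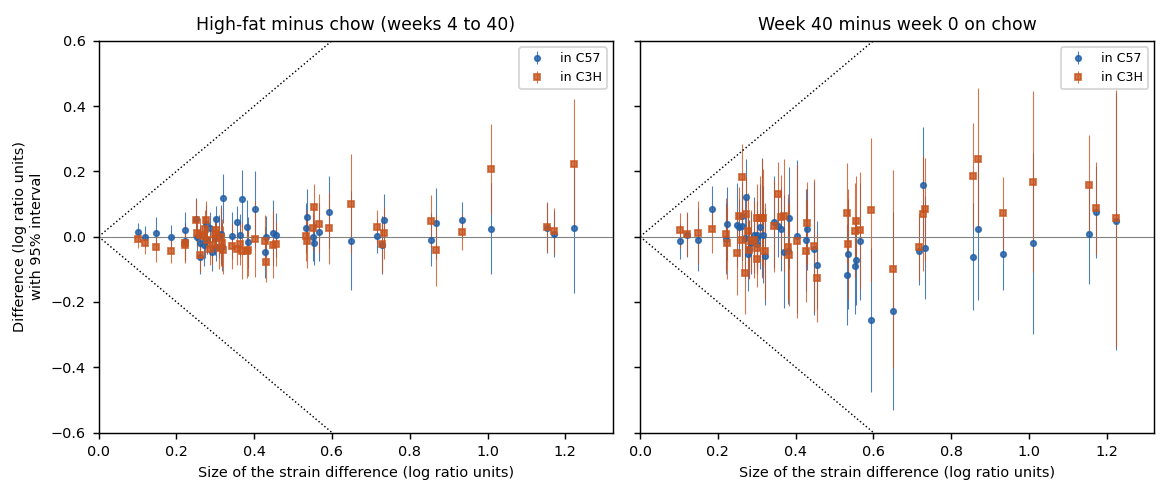
Difference between high-fat and chow (left) and between week 40 and week 0 on chow (right) with 95% intervals, against the size of the strain difference, for 51 features in each strain. Dotted lines mark where a difference would equal the strain difference. All points lie between them, and the intervals are wider for time. The choice of features favours those whose differences within a strain are small beside the strain difference.

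For week 40 against week 0 on chow, the fit called 0 of the 51 features in C57, with 13 of all features called (0.0614%), and 0 in C3H, with 21 called (0.0992%). At an unadjusted p under 0.05 there were 3 of 51 in C57 (2.74% of all) and 5 of 51 in C3H (4.52%). Differences ran from -0.25 in feature 12763 to 0.16 in C57, and from -0.13 to 0.24 in feature 5406 in C3H. Their median size was 0.0368 in C57 and 0.0556 in C3H, against 0.0376 and 0.0400 over all features. These groups hold 3 arrays each.

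In C3H, feature 9840 had the smallest p for time. Its arrays were 0.29, 0.30 and 0.21 at week 0 and 0.54, 0.40 and 0.41 at week 40 on chow. All 3 arrays at week 40 were above all 3 at week 0, a difference of 0.18 (95% interval 0.0801 to 0.285) with an adjusted p of 0.269 in limma. On the high-fat diet at week 40 the mean was 0.33. Over 66 alternatives the adjusted p of this feature ran from 0.0242 to 0.9999, and 1 alternative, the random block of strain, diet and number, called it.

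The strain by time interaction is also built from strain differences that the rule used, so its member counts are a description. It gave 0 calls among members and 0 among all 21179 features (0%). At an unadjusted p under 0.05 there were 2 of 51 and 393 of all (1.86%). Feature 12763 had the smallest p, with an interaction of -0.34 (95% interval -0.647 to -0.0248) and an adjusted p of 0.9999 in limma. Its C57 arrays were 0.62, 0.51 and 0.94 at week 0 and 0.23, 0.57 and 0.51 at week 40. These 2 sets of arrays overlapped, at 0.51 and 0.57. With the replicate block, 0 members were called for time in C57 (77 of all features, 0.364%), for time in C3H (153, 0.722%) and for strain by time (0 of all).

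Members shifted with replicate number, as did features at large. The share of all features past the limit of 0.1 used here was not counted, so the counts do not set the members apart. Over both strains pooled, arrays numbered 3 were lower than the others by more than 0.1 in 10 features and higher by more than 0.1 in 3, with a range from -0.21 to 0.18. Of the 10, 6 were lower by more than 0.1 in each strain, and of the 3, 1 was higher by more than 0.1 in each. In feature 9619 the shift was -0.33 in C57 and -0.05 in C3H. The median size of this shift was 0.0507 over the 51 features and 0.0777 over all features. The median strain difference within each number was of like size, at 0.353, 0.374 and 0.358 for numbers 1, 2 and 3. Feature 7111 varied most among numbers, with strain differences of 0.20, 0.35 and 0.42.

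Each feature has an array at the edge in each strain, 102 edges in all. The 5 arrays of small SD held 26 of them, the 18 arrays numbered 3 held 52, and the second C3H array at week 4 on high-fat diet held 12. The first group and the second share 2 arrays with 10 edges, and the last array is one of the 5. These counts were not made over all features, so they do not set the members apart. The part of these arrays in the separation was not tested, as leaving out arrays can only raise the number of separated features or keep it. Leaving out the arrays numbered 3 raised the number of separated features to 161, and leaving out the 5 arrays of small SD raised it to 64. Separation on the chow arrays alone was met by 111 features (0.524%), and on the high-fat arrays alone by 196 (0.925%). The high-fat diet has no baseline arrays, so fewer arrays had to stay apart there than on chow. A rule over fewer arrays is easier to meet, so these counts do not compare the diets.

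Deviations of the members from their group means were compared across the 54 arrays as a description, since the features share arrays and array spread. The 1275 pairs had correlations from -0.74 to 0.90, with a median of 0.0276. Above 0.7 there were 28 pairs and below -0.6 there were 12. Such pairs were not counted among all features, so neither they nor the sets below set the members apart. Features linked by a correlation above 0.7, directly or through others, formed 6 sets with 24 features, a limit chosen after the correlations were seen. The sets depend on this limit, with 4 sets at 0.65, the largest holding 19 features, and 5 sets at 0.75, the largest holding 6.

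The largest set at 0.7 held 10 features, of which 2859, 3515, 4070, 6769, 8296 and 20502 were higher in C57 and 3393, 5556, 16467 and 20501 were higher in C3H. Its 45 pairs had a median correlation of 0.65. Over both strains pooled, all 10 were lower on arrays numbered 3, with shifts from -0.186 to -0.0779. Feature 3515 shows this at week 0, with 0.30, 0.35 and 0.14 on arrays 1, 2 and 3 of C57 and -0.02, -0.03 and -0.22 on those of C3H. Array 3 was the lowest in both strains for this feature. In each of the 10 the shift was downward within both strains, so features of opposite strain direction shifted alike. It was smallest in feature 3393 in C57, at -0.02. The lowest pair correlation of the set among C57 arrays was -0.12.

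A further set held features 9352, 10555, 12504 and 14540, all higher in C3H. Its 6 pairs had a median correlation of 0.702, with 0.739 among C3H arrays and 0.591 among C57 arrays. The shift of these 4 on arrays numbered 3 ran from -0.02 to 0.10, so it took no common side. At 0.65 this set joined the largest one. The remaining sets held features higher in C57, with 4448, 9785 and 15896 in one, 7111, 12328 and 19497 in another, and 2 pairs. Features 7111, 12328 and 19497 were higher on arrays numbered 3 with the strains pooled, with shifts from 0.0633 to 0.178, but feature 7111 had a shift of -0.01 in C3H.

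**Figure D5:**
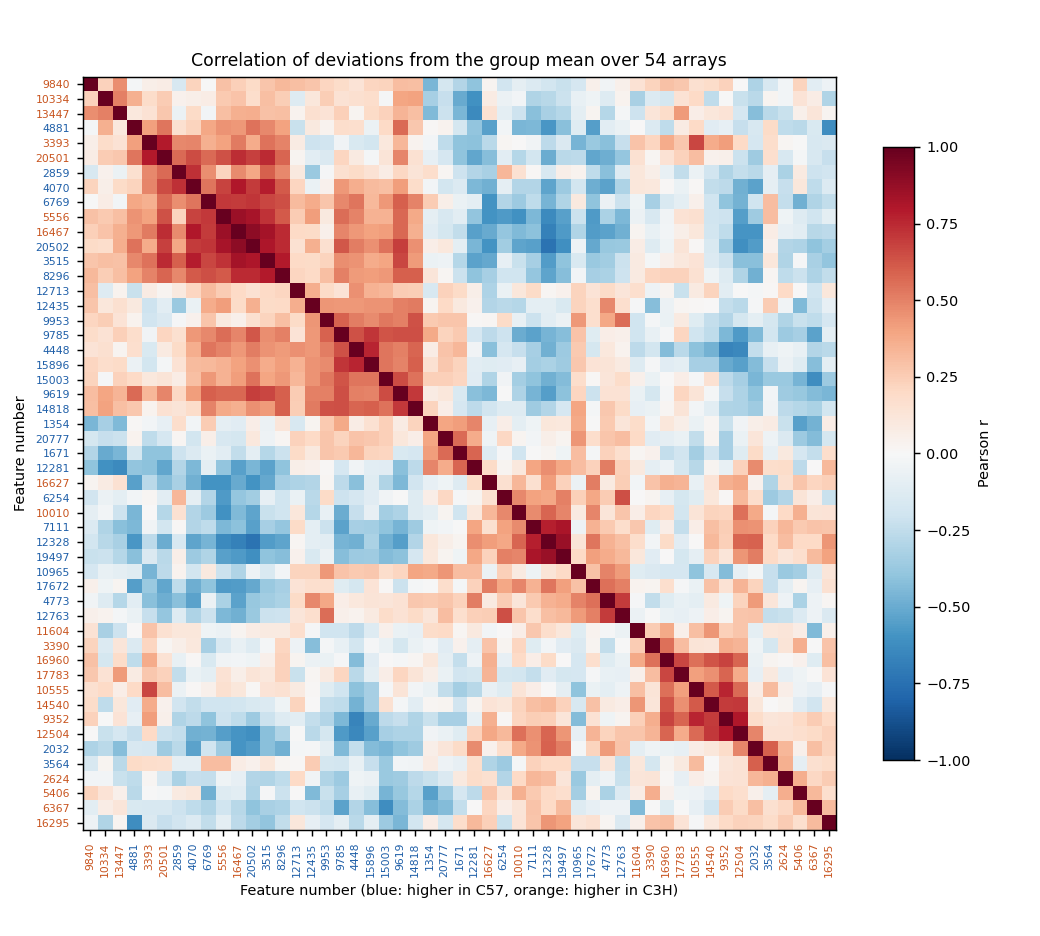
Pearson correlation of deviations from the group mean over 54 arrays for all pairs of 51 features, ordered by likeness, with feature numbers in blue (higher in C57) or orange (higher in C3H). A block at the upper left mixes both directions and holds the features low on arrays numbered 3, and a block at the lower right holds features higher in C3H.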

How the data were processed

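The authors deposited one table of ratios of 21446 features on 54 two-colour arrays. The deposited values are taken as log10 ratios, a likely base only, because they stop at exactly 2 and -2 (71 values). The sources used here give neither dyes nor scanner, nor any background correction or normalization, and signal over background could not be assessed. The number of arrays limits the precision. There were 0 columns of values left unused.

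Exact zeros (7895 values) were treated as not measured. The median over the 20694 features without a missing value was subtracted from each array, and 21179 features with 2 or more values in each of the 18 groups were kept, leaving out 267. All 51 members were measured on all arrays. The members, sets and tests were chosen with earlier results of these data known.

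Tests were two-sided contrasts of 18 group means over all 54 arrays (limma 3.58.1, R 4.3.3, eBayes), with Benjamini-Hochberg adjustment over all features kept and a threshold of 0.05. The procedure was tested on simulated data with residuals independent between arrays. The deposited arrays deviated together by number, so that simulation gives no error rate for them. Features with full values were the 5 widest gaps in each direction, the 3 narrowest and the 3 nearest outside; features named in the tests, because no member was called, and the limit of 0.7 that forms sets of features varying together, were picked after their values were seen. That limit replaced sets first put together by eye from the same correlations.

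Same-numbered arrays deviated together (r of 0.513, 0.661 and 0.797 for diet in C57, 0.304, 0.453 and 0.748 for diet in C3H). This was less so for time in C57, where r was -0.128, 0.0485 and 0.569. The main fit did not pair arrays by number in any contrast. The number entered as the replicate block in an alternative fit of all contrasts.

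The platform annotation lists 17284 features, 45 of the members among them. At 342 accessions listed at a pair of features the mean ratios correlated at -0.0498. The 9 smooth muscle names had a median mean ratio of -0.00278 and the 12 embryo names of 0.00180, so names were not used.

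Alternatives were zeros kept as values, no centring, quantile normalization, arrays scaled to one spread, and a stricter and no minimum of values. Others were the replicate block, the series as a random block, fewer arrays in the fit, and leaving out arrays. The scaling equalized the median absolute deviation of the arrays, not their SD.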

Additional observations from a re-analysis of the deposited data

How the results depend on the processing

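The strain difference of the features given in full kept its direction under all alternatives run. Where arrays were left out, the rule fixed this for the members, since it holds for every array. The number of separated features was 51 with zeros kept as values, 53 with no centring, 54 with quantile normalization and 51 with arrays scaled to one spread; 39 of the 51 were separated under all 4 normalizations. With scaling 7 were lost, feature 4881 among them. The number of separated features ran from 51 to 161 when arrays or replicate numbers were left out, the highest without number 3. It was 75 without number 1 and 71 without number 2. Leaving out arrays can only raise this number or keep it. Without the 5 arrays of small SD, an alternative added after seeing the data, it was 64.

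No test called more than 2 members under any alternative. With the replicate block, calls over all features were 124 and 864 for diet in C57 and C3H, 134 for strain by diet, 77 and 153 for time in C57 and C3H and 72 for the difference over conditions, where 1 member (feature 14540) was called; the block changed no other member's call. The series of strain, diet and number as a random block gave 0, 0, 0, 67, 175 and 24 in the same order, with 1 member each for time in C3H (feature 9840, adjusted p 0.0242) and for the difference over conditions (feature 14540, adjusted p 0.0128). Fitting only the arrays compared gave 4 for diet in C57, 19 for diet in C3H, 0 for time in C57 and 1 for time in C3H. Quantile normalization gave 42, 58, 11 and 25 for diet in C57 and C3H, strain by diet and time in C57, and 22 for the difference over conditions. Scaling gave 24, 59 and 11 for diet in C57 and C3H and strain by diet, and leaving out the arrays of small SD gave 10 for strain by diet. The cause of these changes was not tested.

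Leaving out arrays or numbers gave 1 to 15 calls over all features for diet in C57, 3 to 261 for diet in C3H, 2 to 176 for strain by diet, 2 to 29 and 2 to 50 for time in C57 and C3H, 0 to 1 for strain by time and 0 to 18 for the difference over conditions. Members called were 0 to 1 for diet in C3H, 0 to 2 for the difference over conditions (features 14540 and 10555, without the first C3H chow array of week 4) and 0 for the others.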
